A study of Homo sapiens with 8 samples.

Results

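Of the 22554 features in the deposited tables of SKOV3 cells, 6 are described here: the DNA mismatch repair genes MSH6, MSH3, PMS2, PMS1, MLH3 and EXO1, taken by gene name, all of them measured in every sample. SKOV3 is an established human ovarian cancer line. Messenger RNA was sequenced from 4 control samples in ordinary McCoy's 5A medium with serum, and from 4 samples that received low-density lipoprotein (LDL), the main cholesterol carrier of blood, at 50 µg/mL for 48 h. Both groups came from the same line and medium, with no genetic change named in the labels, and every sample number below is the one in its title. Nothing in the labels tells separate cultures from repeat preparations of 1 culture. The p-values thus set the group difference against the variation between these samples only, which may be technical alone. Serum itself contains lipoproteins, so control cells were not free of them.

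Mismatch repair removes wrong bases and small loops that DNA polymerases leave behind during replication. MutS-type pairs of proteins find the error, MutL-type pairs cut the new strand near it, an exonuclease removes the stretch that holds it, and the replication machinery fills the gap. MSH6 belongs to the MutS pair that recognises single mismatched bases, and MSH3 to the one that recognises larger loops. PMS2 and MLH3 carry the endonuclease of their MutL pairs, and PMS1 forms a further MutL pair whose part in repair is less clear. EXO1 is the exonuclease of the pathway. Loss of mismatch repair gives unstable repeat sequences in tumours, among them a share of ovarian carcinomas.

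Sequences before the gene starts are printed for the members with the highest and the lowest level, MSH6 and MLH3, and for PMS2, whose start lies 120 bases from that of a neighbouring gene on the opposite strand. They come from RefSeq (build GRCh38.p14, all 6 genes matched). Only the longest part of the 250 bases before the start that no annotated exon covers is shown, with E2F, CCAAT and GC box letters in capitals. The stretches lie at chr2:47782895-47783081 on the plus strand for MSH6, chr14:75051533-75051717 on the minus strand for MLH3 and chr7:6009126-6009244 on the minus strand for PMS2.
MSH6: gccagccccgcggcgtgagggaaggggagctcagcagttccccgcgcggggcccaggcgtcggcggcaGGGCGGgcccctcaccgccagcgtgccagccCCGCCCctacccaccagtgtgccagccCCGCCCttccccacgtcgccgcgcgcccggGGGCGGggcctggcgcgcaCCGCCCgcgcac
MLH3: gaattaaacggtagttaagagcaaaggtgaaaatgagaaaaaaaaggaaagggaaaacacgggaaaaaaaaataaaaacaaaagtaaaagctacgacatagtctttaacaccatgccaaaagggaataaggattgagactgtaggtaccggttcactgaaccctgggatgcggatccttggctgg
PMS2: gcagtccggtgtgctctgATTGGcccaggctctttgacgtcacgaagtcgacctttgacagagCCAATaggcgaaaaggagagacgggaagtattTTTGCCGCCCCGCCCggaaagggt

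The MSH6 stretch was 82.35% G and C and held 5 GC boxes, while the MLH3 stretch was 39.46% G and C and held no capital. MSH6 has several RefSeq starts, and the printed stretch lies before the most upstream of them. The stretches before its other starts were 76.92%, 77.01% and 76.7% G and C. The whole 250 bases before those starts held 1, 3 and 3 GC boxes, against 5 before the most upstream start. Motifs were searched on both strands of the 250 bases before each RefSeq start: E2F as TTTCCCGC, TTTGGCGC, TTTCGCGC or TTTGCCGC, the CCAAT box as CCAAT and the GC box as GGGCGG. E2F letters stood before MSH3 and PMS2, and 2.79% of all 35116 promoter windows of that length held them. In PMS2 the end of the E2F match overlaps the first of 2 GC boxes that overlap each other. A CCAAT box stood before MSH6, PMS2 and PMS1 (32.0% of all windows) and a GC box before each member but MLH3 (42.6% of all windows), with MSH6, PMS2 and EXO1 counted at any of their several starts. These matches describe the letters only, and nothing about binding was measured.

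Sequencing depth differed between the groups: the totals were 37189698 to 44883561 counts without LDL and 34682501 to 36780334 with it, and the ranges did not overlap. The 6 genes together held 8500 to 11560 counts per sample. All 7 listed markers of the labelled epithelial carcinoma type were measured. They summed to 5618 to 6084 CPM (counts per 1000000 counts of the library, after scaling) without and 5734 to 6263 CPM with LDL. Most of this was ERBB2 and KRT8, at means of 2552 and 1732 CPM over the 8 samples. KRT7, KRT18 and KRT19 had means of 424 to 615 CPM, and MUC1 and EPCAM of 35.2 and 23.4 CPM. Of markers of other cell types, the 6 leukocyte genes summed to 38.7 to 53.5 CPM over all samples, nearly all of it CD68, and PTPRC was at 0 in all 8. The 4 endothelial genes summed to 2.61 to 4.91 CPM. The 6 fibroblast genes summed to 361 to 383 CPM without and 159 to 417 CPM with LDL, most of it the collagen gene COL1A1, with the lowest value in LDL sample 4. Mitochondrial transcripts took 2.66% to 2.99% of the counts. LDL sample 4 lay at -46.1 on the first principal component, against -1.86 to 17.4 for the other 7, and LDL sample 2 lay at 35.3 on the second, against -19.4 to 18.7. LDL sample 1 was at one end of both ranges, at 17.4 and -19.4, and control sample 3 lay nearest to it, at 9.72 and -14.4. Leaving out LDL sample 1 moved the number of genes called between the groups from 10 to 149, and leaving out LDL sample 4 moved it to 26. The count of members called is therefore also given without LDL samples 1 and 4, taken for their effect on this number, as are MSH3 and MLH3, and their part in the spread of the members was not tested.

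None of the 6 mismatch repair genes passed the test of LDL against control, and the groups overlapped in every one of them. Each log2 fold change lay between -0.09 (MSH3) and 0.01 (MLH3 and EXO1), which is 0.941 to 1.008 of the control level, with a median of -0.02 beside 0.006 for all 15432 genes tested. In edgeR's quasi-likelihood test the adjusted p of the 6 ran from 0.950 to 0.994 over all genes, and 0 of 6 had an unadjusted p under 0.05. Across the genome 0.0648% of genes passed the adjusted threshold (10 genes: 4 higher, 0.0259%, and 6 lower, 0.0389%), 5.59% had an unadjusted p under 0.05, and in 3.45% the groups did not overlap, so a count of 0 among 6 genes lies near that background. DESeq2 and limma voom called 0 of 6 as well, also at an unadjusted p under 0.05. Without LDL samples 1 and 4 the count was again 0 of 6, while 248 genes were called across the genome. In RNA from a whole culture, fewer cells with a transcript and less transcript per cell cannot be told apart.

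**Figure D1:**
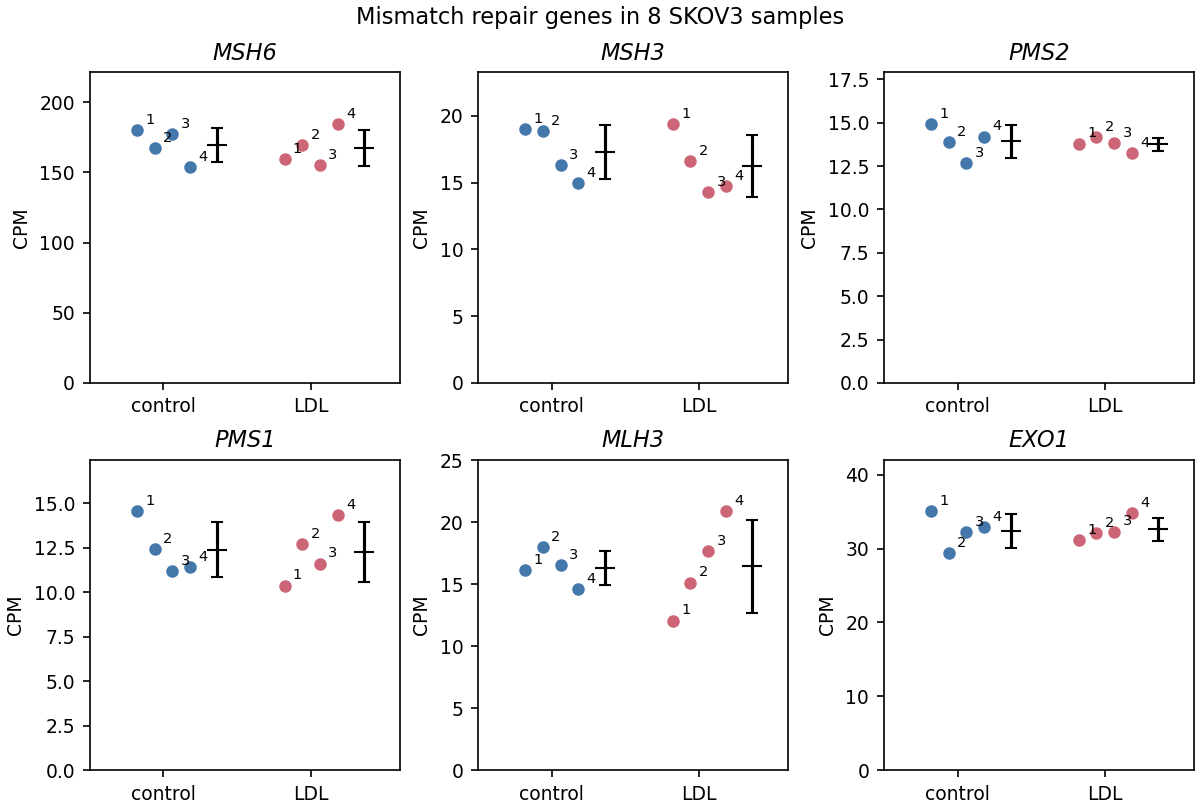
CPM (vertical axis, starting at 0) of each mismatch repair gene in the 4 control (blue) and 4 LDL (red) samples, numbered as in their titles, with the mean and SD of each group as black bars. The groups overlap in all 6 panels, and the LDL samples of MLH3 run from 12.06 (sample 1) to 20.89 CPM (sample 4).

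Of the error-recognising subunits, MSH6 (ENSG00000116062, chromosome 2 from 47695530 to 47810101, plus strand of GRCh38) stood at 180.4, 167, 177 and 154 CPM in control samples 1 to 4 and at 159.7, 169.5, 155 and 184.5 CPM in LDL samples 1 to 4. The highest value was in LDL sample 4 and the lowest in control sample 4, so each group held both high and low libraries. The means were 169.6 ± 11.96 CPM without and 167 ± 12.9 CPM with LDL (SD, n = 4 each). The ratio was 0.986 with a 95% interval of 0.9003 to 1.08 (log2 fold change -0.02, SE 0.062, edgeR adjusted p = 0.979). The depth behind it, 5388 to 7445 counts per sample, was the greatest of the 6 genes, and the interval was the narrowest.

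MSH3 (ENSG00000113318, chromosome 5 from 80654648 to 80876460, plus strand) stood at 19.0, 18.9, 16.3 and 14.9 CPM in control samples 1 to 4 and at 19.4, 16.6, 14.3 and 14.7 CPM in LDL samples 1 to 4. In both groups the spread was wide: LDL sample 1 held the highest of all 8 values and LDL sample 3 the lowest, and control sample 4 lay with the low LDL samples. The means were 17.3 ± 1.99 and 16.25 ± 2.33 CPM (SD, n = 4 each), and MSH3 had the lowest p of the members (log2 fold change -0.09, SE 0.112, edgeR adjusted p = 0.950). Its ratio of 0.941 had an interval of 0.799 to 1.11. The log2 fold change depended on single samples. It was -0.18 without LDL sample 1 (edgeR adjusted p = 0.465) and -0.15 without control sample 4, but -0.03 without LDL sample 3 and -0.04 without LDL sample 4, control sample 1 or control sample 2; without LDL samples 1 and 4 it was -0.17 with an edgeR adjusted p of 0.574.

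Among the MutL genes, PMS2 (ENSG00000122512, chromosome 7 from 5973239 to 6009125, minus strand) varied least. It stood at 14.9, 13.9, 12.7 and 14.2 CPM in control samples 1 to 4 and at 13.8, 14.15, 13.8 and 13.2 CPM in LDL samples 1 to 4. All 4 LDL values lay inside the range of the controls. The means were 13.9 ± 0.937 and 13.7 ± 0.381 CPM (SD, n = 4 each), a ratio of 0.987 with an interval of 0.863 to 1.13 (edgeR adjusted p = 0.990). PMS2 is known to have near-identical pseudogene copies, which were not analysed here, so its level is uncertain to the extent that reads were shared with them.

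PMS1 (ENSG00000064933, chromosome 2 from 189784085 to 189877629, plus strand) stood at 14.6, 12.4, 11.2 and 11.4 CPM in control samples 1 to 4 and at 10.4, 12.7, 11.6 and 14.35 CPM in LDL samples 1 to 4. Control sample 1 and LDL sample 4 were alike and highest, and LDL sample 1 was lowest. The means differed by less than either SD, at 12.4 ± 1.54 against 12.3 ± 1.68 CPM (n = 4 each; ratio 0.99, interval 0.83 to 1.18, edgeR adjusted p = 0.993). PMS1 was the member with the fewest counts, 384 to 601 per sample.

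MLH3 (ENSG00000119684, chromosome 14 from 75013764 to 75051532, minus strand) had the widest spread under LDL. It stood at 16.1, 18, 16.5 and 14.6 CPM in control samples 1 to 4 and at 12.06, 15.1, 17.7 and 20.89 CPM in LDL samples 1 to 4. The lowest and the highest of all 8 values were thus both LDL samples, numbers 1 and 4, the 2 libraries whose omission most raised the number of genes called. The coefficient of variation was 8.61% in control and 22.8% in LDL samples, a difference in spread that was not tested. With means of 16.3 ± 1.40 and 16.45 ± 3.76 CPM (SD, n = 4 each) the ratio was 1.01, and its interval of 0.82 to 1.24 was the widest of the members (edgeR adjusted p = 0.994). The log2 fold change of MLH3 was 0.14 when LDL sample 1 was left out, -0.12 when LDL sample 4 was left out, and 0.006 without both.

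EXO1 (ENSG00000174371, chromosome 1 from 241847967 to 241895148, plus strand), the exonuclease gene, stood at 35.1, 29.4, 32.2 and 32.9 CPM in control samples 1 to 4 and at 31.1, 32.1, 32.3 and 34.9 CPM in LDL samples 1 to 4. The lowest and the highest values were both control samples, numbers 2 and 1. The means were 32.4 ± 2.33 and 32.6 ± 1.59 CPM (SD, n = 4 each), a ratio of 1.006 with an interval of 0.906 to 1.12 (edgeR adjusted p = 0.993). For this gene and for MSH6 the interval was narrower than for the other 4 members, which had fewer counts.

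Control sample 1 held the highest CPM of 3 members (PMS2, PMS1 and EXO1), and LDL sample 4 that of 2 (MSH6 and MLH3). LDL sample 1 held the lowest CPM of PMS1 and MLH3 and the highest of MSH3. No sample was highest or lowest in more than 3 of the 6 genes. Among control samples, the coefficient of variation was 7.05% for MSH6, 11.6% for MSH3, 6.73% for PMS2, 12.5% for PMS1, 8.61% for MLH3 and 7.19% for EXO1. The comparison genes had at least 10 CPM and lay within 2-fold of each member's level. Their median was 3.86% around MSH6, 5.98% around EXO1 and 7.36% to 7.81% around the other 4. Around those 4 the minimum left out the lower part of the 2-fold range. All members but PMS2 varied more between control samples than the median of these genes, and a median without the minimum was not computed.

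Levels between genes were compared on the FPKM scale, which divides by transcript length. MSH6 had the highest level, at a mean of 30.7 FPKM over the 8 samples (range 25.2 to 34.3), above 83.1% of all genes tested. EXO1 followed at 9.64 FPKM (8.88 to 10.3), above 59.7% of genes. Below them PMS1 had 4.10 FPKM (3.39 to 4.95), MSH3 3.65 (3.01 to 4.22), PMS2 2.81 (2.52 to 3.31) and MLH3 2.21 (1.58 to 3.04). MSH6 exceeded EXO1, and EXO1 exceeded PMS1, in 8 of 8 samples with no overlap of ranges. The ranges of PMS1 and MSH3 overlapped, with PMS1 above in 6 of 8 samples, as did those of PMS2 and MLH3, with PMS2 above in 7 of 8. MSH3 exceeded PMS2 in 8 of 8 samples although their ranges overlapped. The order is a description of these samples, without a test.

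**Figure D2:**
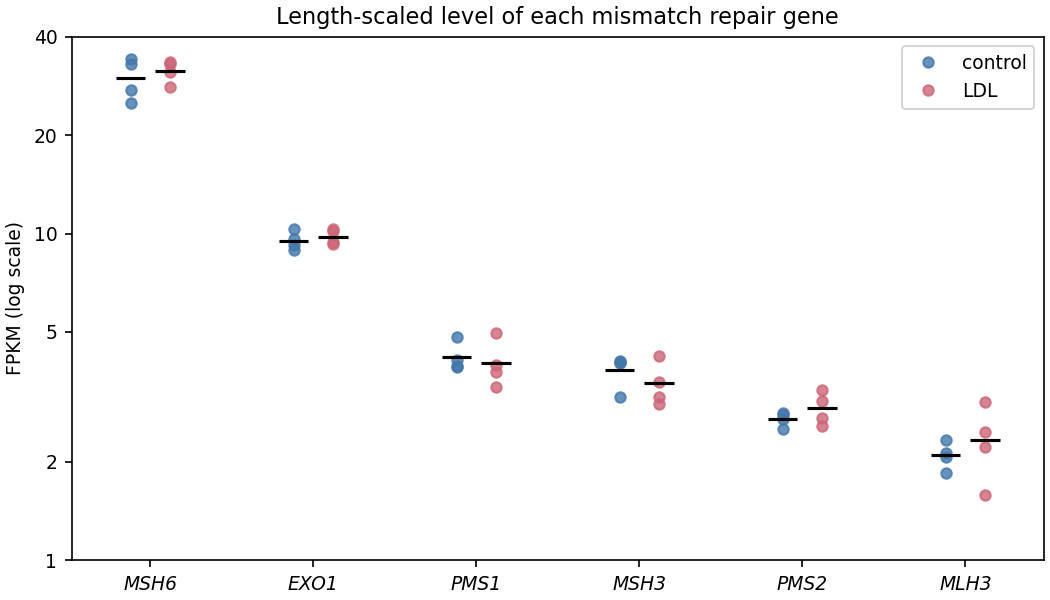
FPKM (vertical axis, log scale) of each mismatch repair gene, ordered by mean, with 1 point per control (blue) and LDL (red) sample and a black line at each group mean. MSH6, at 25.2 to 34.3 FPKM, and EXO1, at 8.88 to 10.3 FPKM, stand clear of the 4 lower genes, whose neighbours in the order overlap.

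Between the MutS subunits, MSH6 exceeded MSH3 by 6.18 to 10.4 times in control and by 7.95 to 10.4 times in LDL samples on the FPKM scale. The mean ratio was 7.99 ± 1.90 in control and 9.15 ± 1.01 in LDL samples (SD, n = 4 each), and the groups overlapped. In CPM, which does not divide by length, the mean ratio was 9.88 ± 0.880 in control and 10.46 ± 1.78 in LDL samples. The groups overlapped on that scale too. Among the 3 MutL genes, PMS1 made up 46.5% ± 2.13 of their summed FPKM in control and 43.2% ± 2.34 in LDL samples, PMS2 30.1% ± 1.64 and 31.95% ± 6.04, and MLH3 23.4% ± 2.17 and 24.9% ± 4.01 (SD, n = 4 each). Each share overlapped between the groups. LDL sample 1 had the highest share of PMS2, at 39.96%, and LDL sample 4 the lowest, at 25.5%.

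The counts and FPKM tables did not follow each other equally well for all members. The quotient of CPM and FPKM gives the transcript length, in kilobases, by which a gene was scaled in a sample. For MSH6 it was 7.17, 4.87, 6.445 and 4.65 kb in control samples 1 to 4 and 4.76, 5.14, 4.97 and 6.58 kb in LDL samples 1 to 4. Control samples 1 and 3 and LDL sample 4 thus stood above 6 kb and the other 5 samples below 5.2 kb, with both kinds in each group. In these 3 samples MSH6 had its 3 lowest FPKM values, 25.2, 27.5 and 28.05, although their CPM were the 3 highest. The highest quotient was 1.54 times the lowest, a larger range than in 98.0% of the 10137 genes of at least 10 CPM, whose scaled lengths had a median range of 1.05. GENCODE release 29 annotates 10 coding transcripts of MSH6, the longest of 7476 bases, and the annotated gene begins upstream of its RefSeq starts and overlaps FBXO11 on the opposite strand. The quotient ran from 6.13 to 7.97 kb for MLH3, 4.17 to 5.38 kb for PMS2, 4.06 to 4.74 kb for MSH3, 3.02 to 3.497 kb for EXO1 and 2.85 to 3.21 kb for PMS1. On the log2(FPKM + 1) scale the log2 fold change of MSH6 was 0.07 (limma adjusted p = 0.930), of the opposite sign to that of the counts. That of PMS2 was 0.08 (limma adjusted p = 0.918), also of the opposite sign.

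**Figure D3:**
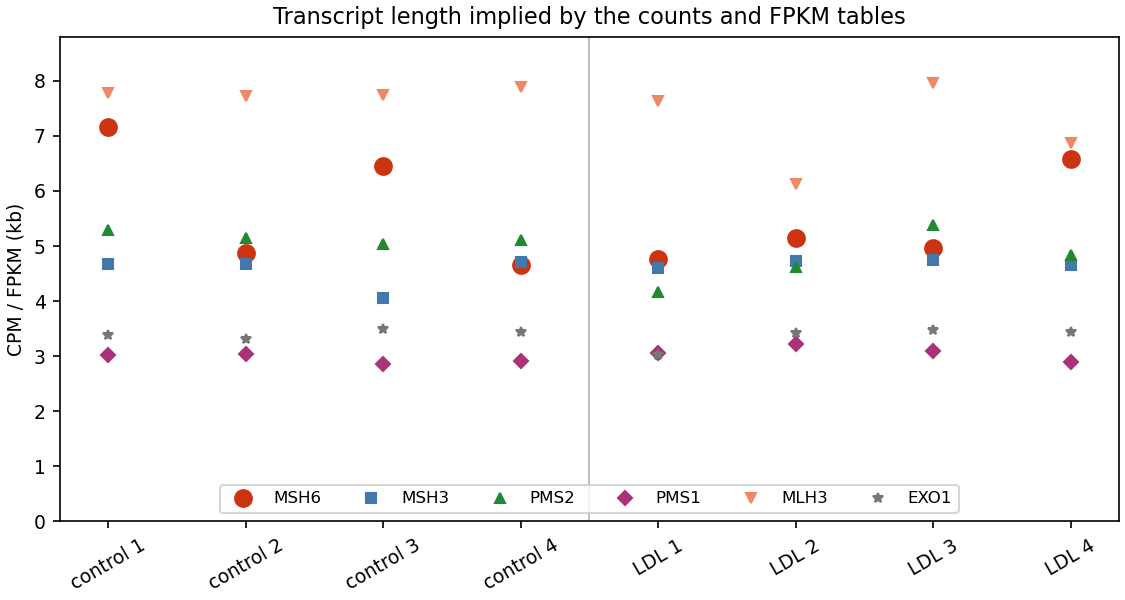
Quotient of CPM and FPKM in kilobases (vertical axis, starting at 0) for the 6 genes in each of the 8 samples (horizontal axis, control left and LDL right of the grey line). MSH6 (large red points) lies at 6.445 to 7.17 kb in control samples 1 and 3 and LDL sample 4, and at 4.65 to 5.14 kb in the others.

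The later steps of repair use proteins of the replication fork, and 24 such partner genes and meiotic relatives were listed by role. Of the 23 tested, none passed in edgeR, 13 lay above and 10 below 0, and the median log2 fold change was 0.02. An unadjusted p under 0.05 was found for 1 of 23 in edgeR and limma voom and for 2 of 23 in DESeq2, and neither other tool called any. For the sliding clamp PCNA and the 5 subunits of its loader RFC, 5 of 6 values lay above 0, with PCNA at 270.5 ± 4.77 CPM without and 280.4 ± 23.9 CPM with LDL (n = 4 each; ratio 1.04, edgeR adjusted p = 0.940). Of the single-strand binding proteins RPA1, RPA2 and RPA3, RPA1 had the lowest p, at 191 ± 12.8 against 181 ± 12.7 CPM (n = 4 each; ratio 0.945, edgeR adjusted p = 0.896).

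POLD4, the smallest subunit of the gap-filling polymerase delta, was the 1 of 23 tested partners in which the groups did not overlap, a share near the 3.45% of all genes. It stood at 30.5, 34.2, 32.8 and 34.0 CPM in control samples 1 to 4 and at 36.01, 39.8, 37.1 and 36.2 CPM in LDL samples 1 to 4. The log2 fold change was 0.18 (SE 0.066, ratio 1.13) with an edgeR unadjusted p of 0.0142 and an edgeR adjusted p of 0.817, so it missed the threshold over all genes. The other 3 subunits, POLD1, POLD2 and POLD3, had log2 fold changes from -0.006 to 0.02. Of the ligase LIG1 and 8 accessory genes none passed, and RNASEH2C, a subunit of the RNase that cuts ribonucleotides out of DNA, had the lowest p (ratio 1.08, edgeR adjusted p = 0.884).

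**Figure D4:**
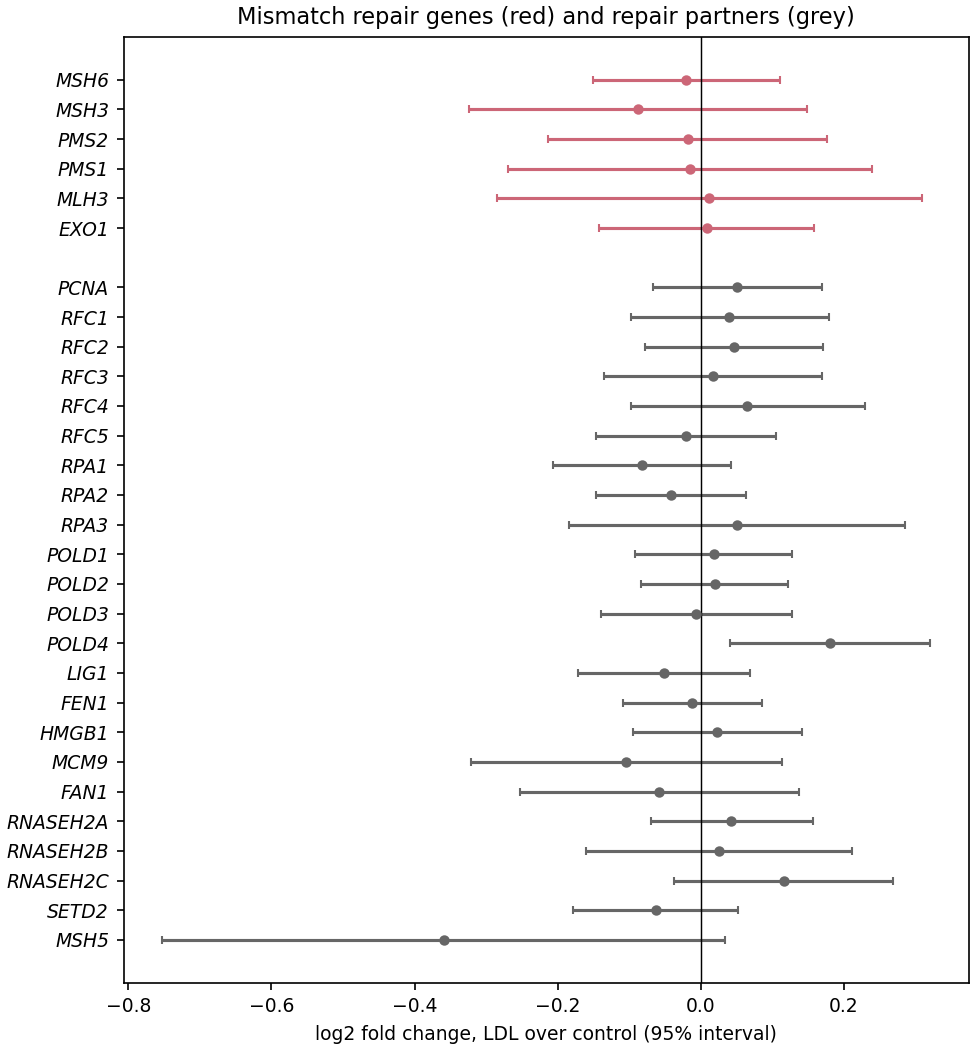
Log2 fold change of LDL over control from edgeR (horizontal axis) with its 95% interval (bars) for the 6 mismatch repair genes (red) and the 23 tested partner genes (grey). Every member's interval crosses 0, and POLD4, at 0.18, is the partner whose interval does not.

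Of the meiotic MutS relatives, MSH4 was near 0 and MSH5, at a mean of 3.42 FPKM, lay between MSH3 and PMS2. MSH4 had 0 to 11 counts per sample and did not enter the test; a count of 0 allows up to 3 counts, or 0.0728 to 0.0864 CPM in the 5 samples where it was 0. MSH5 stood at 11.1, 11.97, 11.3 and 6.04 CPM in control samples 1 to 4 and at 7.41, 9.03, 8.015 and 7.06 CPM in LDL samples 1 to 4 (log2 fold change -0.36, SE 0.183, edgeR adjusted p = 0.879). Its read-through gene MSH5-SAPCD1, which overlaps it, had counts of 57, 77, 96 and 414 in control samples 1 to 4 and of 409, 404, 286 and 283 under LDL (log2 fold change 1.35, SE 0.63, edgeR adjusted p = 0.879). It took 11.05%, 14.6% and 17.9% of the pair's counts in control samples 1 to 3, and 50.7% to 60.6% in control sample 4 and all LDL samples. Control sample 4 therefore lay with the LDL samples in this division. With both genes added together, an addition decided with these values in view, the log2 fold change of MSH5 was 0.34 (SE 0.108, edgeR adjusted p = 0.656), of the opposite sign. Without control sample 4 the value for MSH5 alone was -0.54 (edgeR adjusted p = 0.345). How reads of the shared exons were assigned is not given in the sources used here, so the levels of both genes are uncertain.

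**Figure D5:**
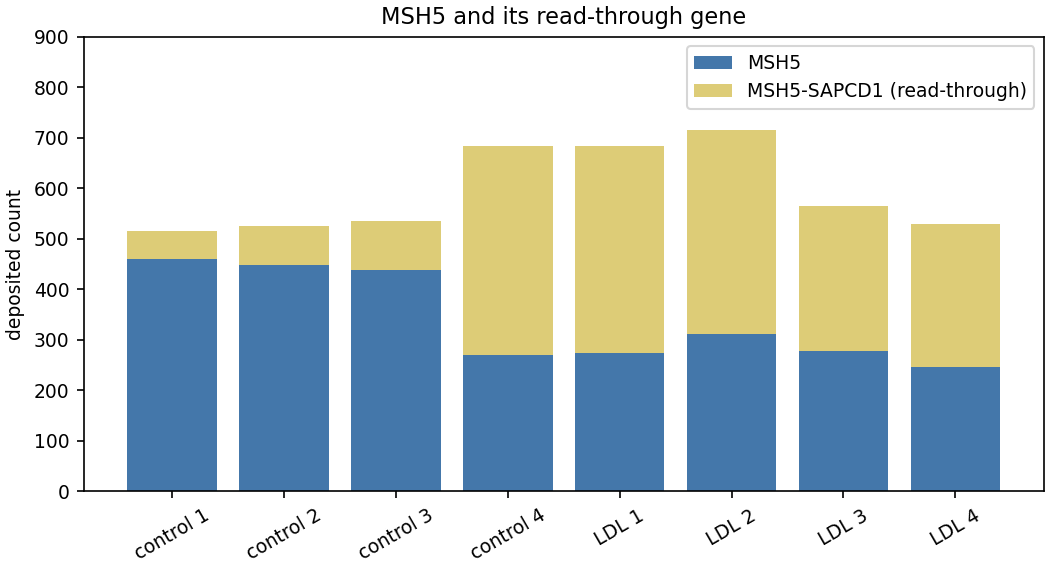
Deposited counts (vertical axis, starting at 0) of MSH5 (blue) and MSH5-SAPCD1 (yellow), stacked, in each of the 8 samples. Control samples 1 to 3 hold 57 to 96 read-through counts, and control sample 4 and the LDL samples hold 283 to 414.

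Because mismatch repair acts behind the replication fork, 27 genes of replication and S phase were set beside the members. All 27 were tested and none passed in edgeR, DESeq2 or limma voom, with 9 above and 18 below 0, a median log2 fold change of -0.02 and 1 unadjusted p under 0.05 in each of the tools. RRM1, a subunit of ribonucleotide reductase, stood at 213 ± 7.405 CPM without and 202 ± 6.66 CPM with LDL (n = 4 each; ratio 0.949, edgeR unadjusted p = 0.126, edgeR adjusted p = 0.884), with overlapping groups.

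PMS2 and PMS1 each start head to head with a gene on the opposite strand. PMS2 starts 120 bases from AIMP2, a scaffold protein of the tRNA synthetase complex, which stood at 34.2 ± 1.46 CPM without and 33.7 ± 1.56 CPM with LDL (n = 4 each; edgeR adjusted p = 0.977). PMS1 starts 286 bases from ORMDL1, a regulator of sphingolipid synthesis, which stood at 36.3 ± 3.37 and 37.4 ± 3.48 CPM (n = 4 each; edgeR adjusted p = 0.961). ORMDL1 was highest in control sample 1, at 41.0 CPM, and LDL sample 4, at 42.1 CPM, the samples where PMS1 was highest. The library kit keeps strand, per the labels, but whether counting used it is not given. Reads where a member overlaps a gene on the opposite strand may thus have been counted for either. MSH6, MSH3 and PMS1 each overlap a protein-coding gene on the opposite strand.

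Of 9814 genes of at least 10 CPM, those whose log2 CPM followed each member most closely over the 8 samples were picked by Pearson's r. They were DDX21 (r = 0.944) and SLC25A30 (0.942) for MSH6, DEPDC5 (0.968) and PDE10A (0.958) for MSH3, and FARSB (0.965) and ABTB1 (0.941) for PMS2. For PMS1 they were SUPT20H (0.992) and ZFAND1 (0.957), for MLH3 ATP5MK and SLCO1B3 (both 0.977), and for EXO1 QDPR (0.948) and ZBED2 (0.935). No member was among those closest to another member. These are the highest of 9814 values over 8 samples that share groups and libraries, and they are given as a description. SUPT20H, the closest of all, ran from 40.9 CPM in LDL sample 1 to 48.0 CPM in LDL sample 4, the same order of extremes within the LDL group as PMS1.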

How the data were processed

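Stranded poly(A) libraries of 8 SKOV3 samples were made with a TruSeq kit, per the labels' protocols. GRCh38, HISAT2, featureCounts and DESeq2 1.26.0 are listed, without roles, in the submitters' processing notes. The annotation release and the strand option were not given in the sources used here. Values in the count table deposited by the authors are whole, as counted reads or rounded estimated counts would be, and were tested unchanged. Even ones are in excess (55.17% of those from 1 to 20), and the cause of this excess was not tested. FPKM, also deposited and scaled to transcript length and depth, served for levels between genes and for alternatives.

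Counts were tested with edgeR 4.0.16 in R 4.3.3 (quasi-likelihood, TMM, filterByExpr, robust, group only, Benjamini-Hochberg over 15432 features, threshold 0.05), and CPM use the same factors. Alternatives were other scaling and count filters, DESeq2 1.42.0, limma 3.58.1 with voom, a replicate block, each sample left out in turn, and limma on FPKM (log2, pseudocount 1 or 0.1, mean of at least 0.5 FPKM or no minimum). Leaving out LDL samples 1 and 4 together, and the summed MSH5 pair with its alternatives, were added after seeing the data. The test was checked on simulated counts. Intervals are 95%, and limits of 3 counts cover counting error only.

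The members and lists were chosen with earlier results of these data known. Named genes are the members, the partner of lowest p in each role and PCNA, opposite-strand neighbours starting within 2 kb, the 2 replication genes of lowest p and the 2 genes of at least 10 CPM most correlated with each member; 1 gene under this rule is not reported here. Others, such as MSH4, MSH5-SAPCD1, COL1A1 and CD68, were named after their values were seen. The plan also held rows named as PMS2 pseudogenes or copies, which were not analysed. Coordinates and exons come from GENCODE release 29 on GRCh38.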

Additional observations from a re-analysis of the deposited data

Results flagged for a closer look

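Of 24 groups of 4 samples examined (6 genes, 2 scales, 2 groups), 1 held a sample far from the others, and chance gives about 1 in 20. It was MSH3 on the FPKM scale in control samples, where control sample 4 stood at 3.17 FPKM and the other 3 at 4.015 to 4.07. In CPM the same sample, at 14.9, was also the lowest control, but the next was 16.3 and the gap was not set apart.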

How the results depend on the processing

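The count of 0 mismatch repair genes, 0 partner genes and 0 replication genes called was the same under all 19 alternatives. The number of genes called across the genome, 10 in edgeR, was 50 with DESeq2, 2 with the replicate block, 4 with limma on FPKM at a pseudocount of 1, 2 at a pseudocount of 0.1, 3 at 1 with no minimum, 248 without both LDL samples 1 and 4, and 2 to 149 with 1 sample left out. Same-numbered samples did not deviate together (correlations of deviations from the group means from -0.101 to 0.06), so the numbers were not read as pairs. The log2 fold changes of the members lie close to 0 and turned sign easily, with the cause not tested. MSH6 was 0.0739, 0.0763 and 0.0739, and PMS2 0.0781, 0.1011 and 0.0781, with the 3 FPKM fits in the order above. MLH3 was -0.0126 with limma voom and -0.0111 with the replicate block. EXO1 was -0.0004 with upper-quartile factors, -0.0001 with no count filter and -0.0124 without both LDL samples, where PMS2 was 0.002. With 1 sample left out, MSH6 ran from -0.0705 to 0.0137 (above 0 without sample 1 or 3 of either group), PMS2 from -0.0606 to 0.0121 (above 0 without control sample 1), PMS1 from -0.0987 to 0.0677 (above 0 without control sample 1 or LDL sample 1 or 3), MLH3 from -0.1242 to 0.1355 (below 0 without control sample 4 or LDL sample 3 or 4) and EXO1 from -0.0347 to 0.0439 (below 0 without control sample 2 or LDL sample 4). MSH3 stayed below 0 in every fit, from -0.1841 to -0.0303 with 1 sample left out. MSH5 was 0.344 with its read-through gene added. Of the members, PMS1, PMS2, MSH3 and MLH3 had the fewest counts, 384 to 785 per sample, and the widest intervals. Their SE ran from 0.092 (PMS2) to 0.139 (MLH3), and the part of depth in this was not tested.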

Other observations

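Genes of mitosis, set beside the members as a second measure of cycling cells, lay below 0 in 16 of 17, with a median log2 fold change of -0.07, beside 7368 of 15432 below 0 and a median of 0.006 for all genes tested. The 17 were measured in the same 8 samples and are not 17 separate observations, and their common direction was not tested. None of the 17 passed in edgeR over all genes or in any of the 19 alternatives. An unadjusted p under 0.05 was found for 4 of 17 in edgeR (5.59% of all genes), 4 in DESeq2 and 3 in limma voom. The edgeR count was 1 without control sample 3, LDL sample 3 or LDL sample 4, and 2 without control sample 1 or 2. It was 3 without control sample 4, 4 without LDL sample 2 and 5 without LDL sample 1. The count was 4 without both LDL samples 1 and 4, and 1 or 2 with limma on the FPKM scale. Without LDL samples 1 and 4, 5 of 17 lay above 0, with a median of -0.04; these alternatives were added after seeing the data. AURKA, a spindle kinase gene, had the lowest p, at 126 ± 4.49 CPM without and 113 ± 3.06 CPM with LDL (n = 4 each; ratio 0.8995, edgeR adjusted p = 0.675), and its groups did not overlap. In CPM the groups did not overlap for TPX2 either, which activates that kinase, but on the FPKM scale they did, and 3.45% of all genes did not overlap in CPM (366 ± 8.47 against 341 ± 18.6 CPM, n = 4 each, edgeR adjusted p = 0.878). NUSAP1, a spindle protein gene, was the 1 of them above 0 (0.16, edgeR adjusted p = 0.957), and control sample 1, at 70.8 CPM, lay far below the other 7 samples at 134 to 155 CPM.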
